A study of Arabidopsis thaliana with 16 samples.

Results

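Salted tissue of the Arabidopsis thaliana root elongation zone (zone 3) was set against unsalted tissue of the zone above it, where root hairs emerge (zone 4). The question was which transcripts that are high or low in zone 4 stood at their zone 4 level in zone 3 after 1 h of salt, and which did not. The comparison used 4 of the 16 Affymetrix ATH1 arrays of the series, 2 of zone 3 under NaCl and 2 of zone 4 on standard medium. The 2 arrays of zone 3 on standard medium gave the background, and the 2 arrays of zone 4 under NaCl are set beside them where they bear on a gene.

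All plants were Columbia seedlings raised on standard medium for 5 days and dissected 1 h after a transfer. Zone 3 and zone 4 under NaCl came from seedlings moved to medium with 140 mM added NaCl, and zone 4 and zone 3 on standard medium from seedlings moved to fresh standard medium. Zone 3 was the stretch of about 200 to 300 µm between the visible end of the meristem and the first hairs, and zone 4 about 1 mm above it. Each sample pooled about 15 sections cut by eye, so it held every tissue of the root at that height. A lower signal from fewer cells of a type and one from less RNA per cell cannot be told apart here. The labels do not say whether the 2 samples of a group came from separate cultures, so every p-value here rests on the spread within these pairs of arrays, which may be technical.

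Cells of the root leave the meristem, elongate, and then differentiate: epidermal cells grow hairs, the endodermis lays down the Casparian strip, and xylem walls thicken. Elongation draws on wall-loosening proteins such as expansins and on cortical microtubules that guide cellulose synthesis, and differentiated cells carry more wall peroxidases, lectins and detoxifying enzymes. Salt slows elongation and, partly through abscisic acid, switches on dehydrins and other late embryogenesis abundant (LEA) proteins that protect cells losing water.

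The values are MAS5 signals, 1 for each probe set, on a linear scale. With the top and bottom 2% of signals dropped, the 16 arrays averaged 250.025 to 250.03, and their medians ran from 58.6 to 77.0. Across the 17099 probe sets tested, which are not independent of each other, the 2 arrays of salted zone 3 correlated at 0.9833, those of zone 4 at 0.9787 and those of unsalted zone 3 at 0.9824. Salted zone 3 arrays correlated with the zone 4 standard arrays at 0.8669 to 0.8778 and with the zone 3 standard arrays at 0.9239 to 0.9365. The zone 4 and zone 3 standard arrays correlated at 0.8046 to 0.8331. No detection calls and no batch were used here. Of the marks of the zones, the hair enzyme gene XTH26 was at 197 and 139 in zone 4 and 3.4 and 3.68 in unsalted zone 3, while the hair expansin EXPA7 was already at 2181 and 2016 in unsalted zone 3, beside 2506 and 2838 in zone 4. The 2 measured root cap genes stood at mean signals of 1.77 to 12.6 in both zones, salted or not, near the floor of the array.

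After 1 h of salt, zone 3 stood within 2-fold of zone 4 for all 3 measured vacuolar processing enzymes. The same held for 4 of the 6 zone 4 high genes among 10 measured ATG8 and ATG3 genes of autophagy. The share among all zone 4 high genes was 17.0%, and several of the matches named here depended on the setting. The unsalted zones differed by a median log2 step of 1.11 for the 3 enzymes, beside 1.64 for all zone 4 high genes. A zone 4 high gene needs a step over 1. Salted zone 3 stayed below zone 4 for the 5 peroxidase genes recognised by symbol or synonym. It stayed above zone 4 for 5 of 7 tubulin genes. It was above both unsalted zones for 5 of 7 genes of the response to water loss. The difference was called in 6312 of 17099 probe sets (36.9%), 2931 higher (17.1%) and 3381 lower (19.8%) in salted zone 3, by limma's moderated test on log2(signal + 16) with Benjamini-Hochberg adjusted p under 0.05. With each array centred on its own median, 3958 were higher and 2567 lower, and the median difference of all probe sets was 0.12 and no longer -0.03. More than 2-fold differences (called, with an estimate past 1 log2 unit) numbered 1122 higher (6.56%) and 1684 lower (9.85%). Unsalted zone 4 against unsalted zone 3 gave 7691 called probe sets (45.0%), of which 2300 were more than 2-fold higher in zone 4 (13.5%) and 1696 more than 2-fold lower (9.92%). These 2300 and 1696 are called zone 4 high and zone 4 low genes below. Salted against unsalted zone 3 gave 4420 (25.8%), 2161 higher (12.6%) and 2259 lower (13.2%).

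Each zone 4 gene was placed by the 95% interval of its difference between salted zone 3 and unsalted zone 4. It was matched where the interval lay within 1 log2 unit (2-fold) on both sides of 0, short where salted zone 3 was called more than 2-fold away on the side of unsalted zone 3, and beyond where it was called more than 2-fold away on the far side. Of the 2300 zone 4 high genes, 392 were matched (17.0%), 1301 short (56.6%), 32 beyond (1.39%) and 575 undecided. Of the 1696 zone 4 low genes, 441 were matched (26.0%), 741 short (43.7%), 7 beyond and 507 undecided. Over all probe sets, changed or not between the zones, the interval lay within 1 log2 unit for 10223 (59.8%). The zone 4 standard arrays both chose these sets and enter the difference, so the counts are a description with no test.

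Among zone 4 high genes the median log2 difference was -1.13 for salted zone 3 minus zone 4, beside 1.64 for zone 4 minus unsalted zone 3 and 0.55 for salted minus unsalted zone 3. Among zone 4 low genes the same medians were 0.92, -1.44 and -0.60. When zone 4 genes were taken instead from salted zone 4 against salted zones 1 and 2, from arrays outside the comparison, the set was larger: 3749 high genes, 36.0% of them matched and 32.1% short. This definition was added after the data were seen, and it takes in genes that already differ between the tip and zone 3.

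Matched zone 4 high genes included a glycosyltransferase, the autophagy proteins of the ATG8 family, a dehydrin and an enzyme that inactivates auxin. Of the matched genes with a gene symbol and at least 100 signal units in 1 group, the 20 with the largest step were taken, a choice made after values were seen, and 12 of them are plotted. UGT87A2, a UDP-dependent glycosyltransferase, had signals of 3492 and 3524 in salted zone 3, 3523 and 2764 in zone 4 and 473 and 448 in unsalted zone 3. Salted zone 3 and zone 4 overlapped, and both lay far above unsalted zone 3. The log2 difference from zone 4 was 0.17 (95% interval -0.09 to 0.43), and the salt change within zone 3 was 2.89 (SE 0.12, adjusted p = 1.33e-10).

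COR47, a dehydrin that accumulates in cold and drought, had 14264 and 13503 in salted zone 3, 13303 and 11886 in zone 4 and 4786 and 5929.6 in unsalted zone 3, and its log2 difference from zone 4 was 0.14 (interval -0.20 to 0.49). Salted zone 4 read 13313 and 14409.8, so 3 of the 4 groups stood close together and unsalted zone 3 apart. IAGLU, which glucosylates the auxin indole-3-acetic acid, had 2314 and 2557 in salted zone 3, 2092 and 1699 in zone 4 and 779 and 700.1 in unsalted zone 3. Its salted zone 3 arrays lay just above those of zone 4 without a called difference (0.36, adjusted p = 0.123). UBC29, a ubiquitin-conjugating enzyme, had 598 and 619.6 in salted zone 3, 825 and 713 in zone 4 and 175 and 212 in unsalted zone 3, a difference of -0.33 from zone 4 (interval -0.67 to 0.02), with salted zone 3 below both zone 4 arrays. GSO1, a receptor kinase needed for a closed Casparian strip, had 882 and 990.0 in salted zone 3, 1226 and 983 in zone 4 and 397 and 527 in unsalted zone 3, and its arrays of salted zone 3 and zone 4 overlapped.

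PDC2, a pyruvate decarboxylase at the entry to ethanol fermentation, had 739.5 and 707 in salted zone 3, 685 and 1309 in zone 4 and 271 and 387 in unsalted zone 3. Both salted zone 3 arrays lay between the zone 4 arrays, which were far apart, and without zone 4 standard replicate 7 the difference was called and not matched (-0.84, adjusted p = 0.0128). TBL41, of the TRICHOME BIREFRINGENCE-LIKE (TBL) family of wall polysaccharide acetyltransferases, had 1681 and 1952 in salted zone 3, 1289.8 and 1522 in zone 4 and 537 and 639 in unsalted zone 3. Among genes listed by locus only, AT1G68500 had the largest step of the matched genes: 1732 and 2297 in salted zone 3, 2449 and 2429.7 in zone 4 and 128 and 161 in unsalted zone 3. AT4G33666 averaged 1573 ± 241 in salted zone 3, 1583 ± 3.97 in zone 4 and 145 ± 30.4 in unsalted zone 3 (SD, n = 2 each). For both, the salted zone 3 arrays were on the zone 4 side by a wide margin, with differences from zone 4 of -0.29 and -0.02.

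**Figure D1:**
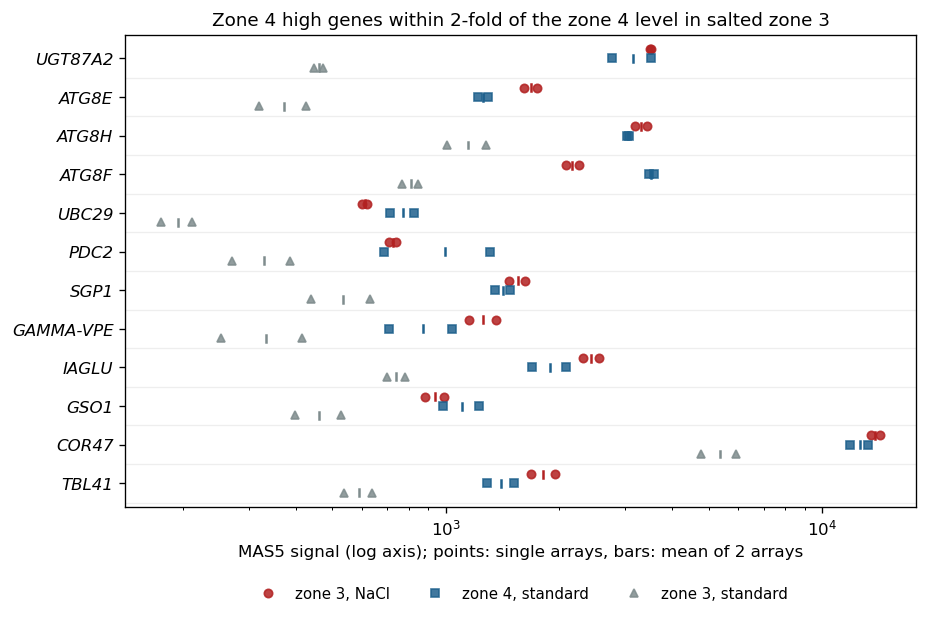
MAS5 signals on a log axis of 12 zone 4 high genes that were matched, for salted zone 3 (red circles), zone 4 on standard medium (blue squares) and zone 3 on standard medium (grey triangles). Points are single arrays and bars the mean of 2 arrays; in each gene the salted zone 3 arrays lie above both unsalted zone 3 arrays, and in ATG8F and UBC29 they fall between the other groups.

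ATG8 proteins are ubiquitin-like and sit on the membrane of the forming autophagosome, and ATG3 is the enzyme that attaches them to lipid. Of 10 measured genes, 6 were zone 4 high: 4 were matched, 1 was short and 1 undecided. Salt raised 9 of the 10 within zone 3, the exception being ATG3 (0.39, adjusted p = 0.0634). Over all probe sets, 17.1% were higher and 19.8% lower than zone 4. Against zone 4, 1 of the 10 was higher, 4 were lower and 5 did not pass, and the family median was 0.09 beside -0.03 over all probe sets. The higher one, ATG8C (0.49), and APG8A (-0.44), one of the 4 lower, were at the threshold. ATG8C lost its call without any 1 of the 6 arrays, and APG8A without any 1 of them but zone 4 standard replicate 7.

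ATG8H had 3193 and 3435 in salted zone 3, 3041 and 3068 in zone 4 and 1011 and 1277 in unsalted zone 3, a difference of 0.12 from zone 4 (interval -0.19 to 0.42). ATG8E had 1614 and 1753 in salted zone 3, 1218 and 1293 in zone 4 and 319 and 425 in unsalted zone 3, and stood slightly above zone 4 (0.42, interval -0.01 to 0.85). ATG8F had 2086 and 2259 in salted zone 3, 3464 and 3584 in zone 4 and 768 and 847 in unsalted zone 3. It was lower than zone 4 by a called difference of -0.69 (SE 0.14, adjusted p = 0.00098), and its interval only just met the rule for a match. ATG8B was the short one, at 56.2 and 53.7 in salted zone 3, 171 and 269.7 in zone 4 and 22.0 and 33.4 in unsalted zone 3. The ATG8 genes under salt ranged from a level just above zone 4 to less than 2-fold above unsalted zone 3.

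The vacuolar processing enzymes are cysteine proteases that mature other vacuolar proteins. All 3 measured genes, ALPHA-VPE, BETA-VPE and GAMMA-VPE, were zone 4 high and matched, with differences from zone 4 of 0.31, -0.20 and 0.54, none of them called. Their median step between the unsalted zones was 1.11, just past the limit of 1. Over all zone 4 high genes the median step was 1.30 for matched and 2.05 for short ones. GAMMA-VPE had 1153 and 1365 in salted zone 3, 705 and 1041 in zone 4 and 252 and 416 in unsalted zone 3, so salted zone 3 lay above every zone 4 array. Its difference was called in 6 of the alternatives, at 0.82 without zone 4 standard replicate 8 (adjusted p = 0.015) and at 0.54 without either unsalted zone 3 array. The salt change within zone 3 was called for all 3 (1.33, 0.91 and 1.90). These matches were close to the limit of the rule: of 15 settings, ALPHA-VPE was matched in 8, BETA-VPE in 9, GAMMA-VPE in 9 and ATG8F in 6.

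Short genes were the larger group, and they held the genes with the largest zone 4 steps of all. AT2G23540 had 0.803 and 2.24 in salted zone 3, 2474 and 4483 in zone 4 and 1.42 and 1.63 in unsalted zone 3. Salted zone 3 was as low as unsalted zone 3, and the difference from zone 4 was -7.58 (SE 0.25, adjusted p = 1.43e-12). AT4G38080 had 15.5 and 11.6 in salted zone 3, 3680.0 and 5461 in zone 4 and 1.52 and 2.79 in unsalted zone 3, a difference of -7.25. Signals this low lie under the pseudocount, which therefore sets the size: for AT2G23540 it was -10.43 with a pseudocount of 1 and -5.70 with 64. The next largest differences below zone 4, all in genes listed by locus only, were -6.52 for AT3G50400, -6.47 for AT1G74460, -5.66 for AT2G35380, -5.35 for AT1G68850 and -5.31 for AT5G09480. AT3G50400, for one, averaged 20.2 ± 5.78 in salted zone 3, 3296 ± 440.0 in zone 4 and 8.96 ± 2.92 in unsalted zone 3 (SD, n = 2 each), low in zone 3 with and without salt.

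Peroxidases of class III cross-link and loosen walls. Of this family, 5 genes were recognised by symbol or synonym, and others may stand among the genes listed by locus only. AT4G26010, a peroxidase gene on the root hair list, is such a gene, and its difference from zone 4 did not pass. It was called lower with a pseudocount of 64 (-0.61), after quantile normalization (-0.85) and in the fit of 6 arrays (-0.62). The 5 therefore do not stand for the whole family, and 19.8% of all probe sets were called lower. The 5 were lower in salted zone 3 than in zone 4 (median -1.15), 4 of them without zone 4 standard replicate 8 or zone 3 NaCl replicate 2, or with a pseudocount of 1, and 3 of the 4 zone 4 high ones were short. AT5G64120, listed as peroxidase 71, had 169 and 121 in salted zone 3, 5234 and 5243 in zone 4 and 51.5 and 64.3 in unsalted zone 3, a difference of -5.05 (SE 0.21, adjusted p = 2.12e-11). Salt raised it within zone 3 by 1.11 (adjusted p = 0.000897), yet salted zone 3 stayed far below zone 4. PRX52 had 46.6 and 38.2 in salted zone 3, 593 and 601 in zone 4 and 18.5 and 23.9 in unsalted zone 3 (-3.40, adjusted p = 1.95e-09). AT5G66390, listed as peroxidase 72, came closest among the short ones, with means of 2195 ± 6.71 in salted zone 3, 4898 ± 22.5 in zone 4 and 439 ± 156 in unsalted zone 3 (SD, n = 2 each). AT2G41480, listed as peroxidase 25, was called lower at -0.83, but not without zone 4 standard replicate 8 or zone 3 NaCl replicate 2 (differences of -0.57 and -0.58).

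Further short genes included a lectin, a copper protein and a beta-glucosidase. JAL33, a jacalin-related lectin, had 145 and 91.2 in salted zone 3, 2228 and 3975 in zone 4 and 77.6 and 66.7 in unsalted zone 3. Its salt change within zone 3 did not pass (0.58, adjusted p = 0.235), and the difference from zone 4 was -4.51 (SE 0.34, adjusted p = 1.93e-08). ARPN, a plantacyanin (a small copper protein of the wall), had 23.2 and 30.6 in salted zone 3, 677 and 1011 in zone 4 and 16.5 and 24.2 in unsalted zone 3, with overlap between the zone 3 groups. PYK10, the beta-glucosidase of root ER bodies, was abundant throughout, with 2207 and 2879 in salted zone 3, 6290.2 and 7205 in zone 4 and 2450.0 and 1825 in unsalted zone 3. Its salted zone 3 arrays overlapped those of unsalted zone 3 and lay below zone 4 (-1.41, adjusted p = 2.59e-06).

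Other short genes had a called salt change towards zone 4. UGT76C2, which glucosylates cytokinins, had 59.7 and 68.6 in salted zone 3, 557 and 594 in zone 4 and 3.94 and 5.19 in unsalted zone 3. The salt change was 1.96 (adjusted p = 8.73e-06) of a step of 4.85, and no array of any group overlapped another group. CCR2, a cinnamoyl-CoA reductase of the lignin pathway, had 42.7 and 57.6 in salted zone 3, 519.6 and 459 in zone 4 and 4.39 and 6.22 in unsalted zone 3, a salt change of 1.63. GH3.3, which conjugates auxin to amino acids, had 56.0 and 33.2 in salted zone 3, 338 and 877 in zone 4 and 2.8 and 9.92 in unsalted zone 3, a salt change of 1.43. In each of these 3 genes, salted zone 3 lay between the other groups and more than 2-fold below zone 4, with differences of -2.88, -2.94 and -3.24. AT3G53980 had 762 and 758 in salted zone 3, 1960.1 and 2807 in zone 4 and 18.6 and 19.9 in unsalted zone 3, a salt change of 4.46 that left a difference of -1.61 from zone 4 (adjusted p = 0.00181, not called with a pseudocount of 1).

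**Figure D2:**
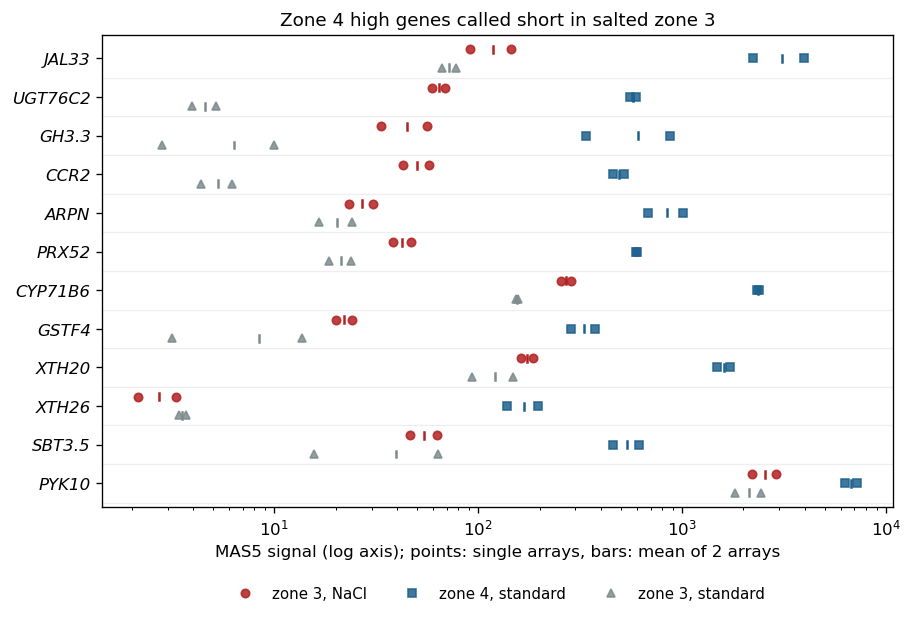
MAS5 signals on a log axis of 12 zone 4 high genes called short, for salted zone 3 (red circles), zone 4 on standard medium (blue squares) and zone 3 on standard medium (grey triangles). Points are single arrays and bars the mean of 2 arrays; in all 12 genes every salted zone 3 array lies below both zone 4 arrays, and in ARPN, XTH26, SBT3.5 and PYK10 at least 1 salted zone 3 array is no higher than an unsalted zone 3 array.

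Enzymes that handle small molecules were mixed. Over all probe sets, 17.1% were higher and 19.8% lower than zone 4, and no family count was tested against these shares. Of 41 measured UDP-glycosyltransferase genes, 4 were higher, 15 lower and 22 did not pass against zone 4, and the median was -0.18. Of the 14 zone 4 high ones, 3 were matched (UGT87A2, UGT76E12 and GT72B1) and 7 short. Of 241 cytochrome P450 genes recognised by symbol or synonym, 12 were measured. Of these, none was higher, 5 were lower and 7 did not pass (median -0.36). With a pseudocount of 64, after quantile normalization or median centring, or in the fit of 6 arrays, 1 was higher. The P450 gene CYP71B6 had 285 and 254 in salted zone 3, 2334 and 2389 in zone 4 and 156 and 153 in unsalted zone 3, a difference of -3.06 (adjusted p = 4.22e-09). Glutathione S-transferases, which couple glutathione to reactive compounds, divided evenly, 4 higher and 4 lower of 13. GSTU28, at 716 ± 21.8 in salted zone 3, 133 ± 57.1 in zone 4 and 558 ± 3.68 in unsalted zone 3 (SD, n = 2 each), and GSTF4 were at the ends of that family, with differences of 2.35 and -3.18. GSTF4 averaged 22.0 ± 2.67 in salted zone 3, 330.3 ± 62.4 in zone 4 and 8.43 ± 7.44 in unsalted zone 3. Of 10 beta-glucosidase genes, 2 were higher and 3 lower, and without zone 3 NaCl replicate 2 the count of higher ones was 0.

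Root hair genes did not move as a block. Of the 24 genes written for this list, 5 were measured under a listed gene. The others may lie among probe sets with no listed gene. Of the 5, 2 were higher in salted zone 3 than in zone 4, 1 was lower and 2 did not pass. With a pseudocount of 64, after quantile normalization or in the fit of 6 arrays, 2 were higher and 3 lower. Over all probe sets, 17.1% were higher and 19.8% lower. EXPA7, an expansin of hair cells, had 4586 and 4972 in salted zone 3, 1244 and 769 in salted zone 4, 2506 and 2838 in zone 4 and 2181 and 2016 in unsalted zone 3. The highest signals of this hair gene were in salted zone 3, which was above zone 4 by 0.84 (adjusted p = 0.0172). The call was lost without zone 4 standard replicate 7, zone 3 NaCl replicate 1 or zone 3 NaCl replicate 2, at differences of 0.75 to 0.89, and with a pseudocount of 1.

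EXPA18, the other hair expansin, had 2671 and 2727 in salted zone 3, 1285 and 1066 in salted zone 4, 4065 and 3839 in zone 4 and 1112 and 1603 in unsalted zone 3. Its difference from zone 4 did not pass (-0.55, adjusted p = 0.058), but was called lower without either unsalted zone 3 array. XTH26, a xyloglucan-modifying enzyme of hair cells, had 3.31 and 2.16 in salted zone 3, 47.5 and 57.0 in salted zone 4, 197 and 139 in zone 4 and 3.4 and 3.68 in unsalted zone 3, near the floor in zone 3 with or without salt (difference from zone 4 -3.28, adjusted p = 1.19e-07, or -5.50 with a pseudocount of 1). AT4G26010, also on the list, is a peroxidase gene. In salted zone 3 it lay between the unsalted zones, at 3549 ± 397 beside 5439 ± 302 in zone 4 and 1243 ± 393 in unsalted zone 3 (SD, n = 2 each).

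Of the 164 genes written into the lists by name, 25 were measured, and few were of other cell types. Measured means here that a tested probe set lists the gene as its only one. The other genes may lie among the 7151 tested probe sets with no listed gene, so their absence does not mean that they gave no signal. Beside GSO1, the Casparian strip list held AT1G61590, at 513 ± 39.2 in salted zone 3, 697 ± 83.4 in zone 4 and 110.1 ± 20.3 in unsalted zone 3 (SD, n = 2 each), with a difference from zone 4 of -0.43 that did not pass. The 1 gene of the xylem list, GUT2, of the xylan synthesis pathway, was lower than zone 4 by a called -0.61. GUT2 was zone 4 high and still matched by the rule, a class it kept in 6 of 15 settings. Its step between the unsalted zones was 1.03, just past the limit, and its salt change within zone 3 was not called (0.41). Of the cell cycle list, the Aurora kinase AUR1 was lower (-0.79) and AUR2 did not pass (-0.45), at means of 102 and 32.4 in salted zone 3 and 188 and 49.1 in zone 4. The suberin, phloem, abscisic acid signalling and ion transport lists had 0 genes measured by name and are not analysed here. The 68 plastid-encoded transcripts gave 0 higher and 3 lower, beside 17.1% and 19.8% of all probe sets, with a median of -0.14. Without zone 3 NaCl replicate 1, or after median centring, 1 of them was lower, and without zone 4 standard replicate 8, or after median centring, 1 was higher.

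Zone 4 low genes called short included a wall hydrolase, transcription factors, tubulins and expansins. GH9B13, a glycosyl hydrolase of the cellulase family, had 1786 and 1635 in salted zone 3, 22.8 and 2.55 in zone 4 and 2449.8 and 2786 in unsalted zone 3, a difference of 6.01 from zone 4 (SE 0.31, adjusted p = 2.51e-10). The salt change within zone 3 did not pass (-0.61, adjusted p = 0.173). The next largest differences above zone 4 were 5.18 for AT5G48900 and 5.13 for DRT100, a leucine-rich repeat protein, and AT5G48900 averaged 3465 ± 294 in salted zone 3, 79.9 ± 6.62 in zone 4 and 2105 ± 38.3 in unsalted zone 3 (SD, n = 2 each). UPB1, a bHLH factor that represses peroxidase genes and sets where elongation begins, had 1627 and 1609.9 in salted zone 3, 55.4 and 39.4 in zone 4 and 1544 and 1112 in unsalted zone 3 (4.70, adjusted p = 4.76e-09). Every salted zone 3 array of UPB1 was above every unsalted zone 3 array, without a called salt change (0.30). LEP, an AP2/ERF factor, had 4074 and 3745 in salted zone 3, 132 and 103 in zone 4 and 2216 and 1647 in unsalted zone 3, further from zone 4 with salt than without (salt change 1.03, adjusted p = 0.000544).

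The tubulins, the subunits of microtubules, were 4 of 7 zone 4 low, and none of those was matched: 5 of 7 were higher in salted zone 3 than in zone 4, none was lower, and the median was 0.67. TUB1 had 2344 and 2145 in salted zone 3, 82.9 and 71.7 in salted zone 4, 253 and 232 in zone 4 and 4095 and 2892 in unsalted zone 3, a difference from zone 4 of 3.13 (adjusted p = 1.31e-08). TUB5 had 1390.3 and 1148 in salted zone 3, 189 and 132 in zone 4 and 2106 and 2066 in unsalted zone 3 (2.88), with a called salt change of -0.72 within zone 3. TUA6 was short as well (1.58), TUB7 and TUB9 were higher by 0.67 and 0.59 (TUB7 without zone 4 standard replicate 7 was 0.39 and not called), and TUB6 and TUA1 did not pass. IQD proteins, many of which bind microtubules, gave 7 of 12 higher and 1 lower, with a median of 0.92. For both families the shares over all probe sets were 17.1% higher and 19.8% lower. Of the 7 zone 4 low IQD genes, 6 were short, led by iqd33 with 102 and 97.0 in salted zone 3, 4.65 and 4.34 in zone 4 and 185 and 141 in unsalted zone 3. IQD22 was not called without zone 4 standard replicate 8, zone 3 NaCl replicate 1 or zone 3 NaCl replicate 2 (differences of 1.09 to 1.30), nor IQD16 without zone 3 NaCl replicate 1 (0.95).

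**Figure D3:**
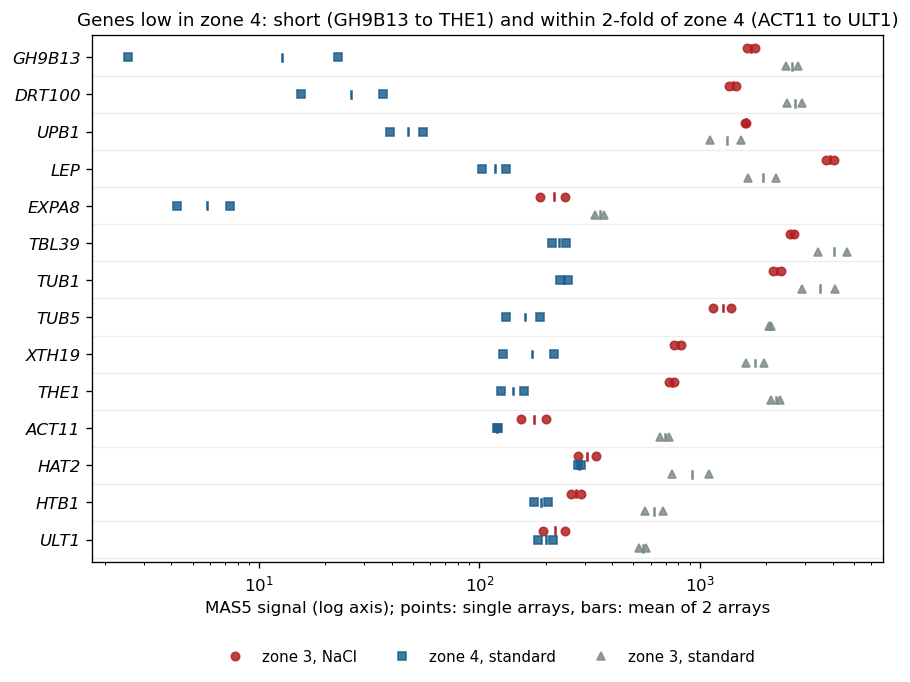
MAS5 signals on a log axis of 14 zone 4 low genes, 10 short (upper rows) and 4 matched (lower rows), for salted zone 3 (red circles), zone 4 on standard medium (blue squares) and zone 3 on standard medium (grey triangles). Points are single arrays and bars the mean of 2 arrays; in the 10 short genes every salted zone 3 array lies above both zone 4 arrays.

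Wall-loosening genes split by member. Over all probe sets, 17.1% were higher and 19.8% lower than zone 4. Of 15 measured expansin genes, 5 were higher in salted zone 3 than in zone 4, 6 lower and 4 did not pass. None of the 10 that were zone 4 high or low was matched in the main fit. EXPA18 was undecided in 10 of 15 settings and matched in the others. EXLB1 and EXLA2, also undecided, were each matched under an alternative. EXPA8 had 246 and 189 in salted zone 3, 7.36 and 4.25 in zone 4 and 368 and 335 in unsalted zone 3 (3.41, adjusted p = 8.04e-08, or 2.00 with a pseudocount of 64), and EXPA9 and EXPB1 were short as well (2.25 and 1.25). The expansin-like gene EXLA1, high in zone 4, had 398 and 371 in salted zone 3, 1549 and 1052 in zone 4 and 381 and 477 in unsalted zone 3 (-1.69, adjusted p = 2.27e-06). EXLA3 fell below both unsalted zones, to 30.2 and 8.33 in salted zone 3, against 230.2 and 152 in zone 4 and 87.0 and 139 in unsalted zone 3 (-2.60 from zone 4, adjusted p = 7.02e-06). EXPA20, also short, was not called without zone 4 standard replicate 7 or zone 3 NaCl replicate 2 (differences of -1.15 and -0.90).

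Of 9 xyloglucan enzymes (XTH family), 2 were higher, 4 lower and 3 did not pass, beside 17.1% higher and 19.8% lower over all probe sets. XTH19 had 825 and 760.2 in salted zone 3, 32.5 and 41.5 in salted zone 4, 219 and 128 in zone 4 and 1623 and 1949 in unsalted zone 3. Salt lowered it in both zones, and salted zone 3 stayed above zone 4 by 2.13 (adjusted p = 7.45e-07). XTH16 had 38.4 and 49.0 in salted zone 3, 19.1 and 19.7 in zone 4 and 513 and 604 in unsalted zone 3, so nearly the whole step was covered (-3.27 of -4.01), with a remaining difference of 0.75 (adjusted p = 0.0104; 0.62 and not called without zone 3 NaCl replicate 2). XTH18 had 336 ± 85.2 in salted zone 3, 475 ± 184 in zone 4 and 1501 ± 129 in unsalted zone 3 (SD, n = 2 each). Its difference from zone 4 did not pass (-0.45), and by the rule for a match it was undecided. XTH20, high in zone 4, was short, at 185 and 163 in salted zone 3, 1481 and 1721 in zone 4 and 148 and 93.7 in unsalted zone 3. XTH33 was called lower than zone 4 (-1.49), but not without zone 4 standard replicate 7 (-1.22) or zone 3 NaCl replicate 2 (-0.62).

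Of 19 TBL genes, 5 were higher, 2 lower and 12 did not pass, beside 17.1% higher and 19.8% lower over all probe sets. TBL39 led, with 2661 and 2562 in salted zone 3, 213 and 247 in zone 4 and 4643 and 3446 in unsalted zone 3 (3.42, adjusted p = 7.01e-11), and 5 of the 6 zone 4 low members were short. THE1, a receptor kinase that monitors the wall during growth, had 726 and 766 in salted zone 3, 51.9 and 55.0 in salted zone 4, 159.8 and 126 in zone 4 and 2112 and 2301 in unsalted zone 3. Its salt change within zone 3 was -1.54 (adjusted p = 1.15e-06), and salted zone 3 still lay above zone 4 by 2.27.

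Beside 17.1% of all probe sets higher and 19.8% lower, the list of elongation and wall growth genes had 2 of 6 higher in salted zone 3 than in zone 4. On that list 1 was lower and 3 did not pass. The median was 0.19 from zone 4, although the same 6 genes had medians of -2.48 for the step between the unsalted zones and -2.03 for the salt change within zone 3. EXO, a gene of brassinosteroid-promoted growth, fell below both unsalted zones, to 26.8 and 26.7 in salted zone 3, against 93.1 and 78.3 in zone 4 and 99.0 and 219 in unsalted zone 3. COB, which orients cellulose fibrils, did not pass (-0.36, adjusted p = 0.0851). EXLA2 dropped to 33.6 and 5.9 in salted zone 3, against 2.15 and 2.72 in zone 4 and 289 and 332 in unsalted zone 3, a salt change of -3.31 of a step of -4.14; its difference from zone 4 did not pass (0.84, adjusted p = 0.142), but was 1.43 and called without zone 3 NaCl replicate 2.

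**Figure D4:**
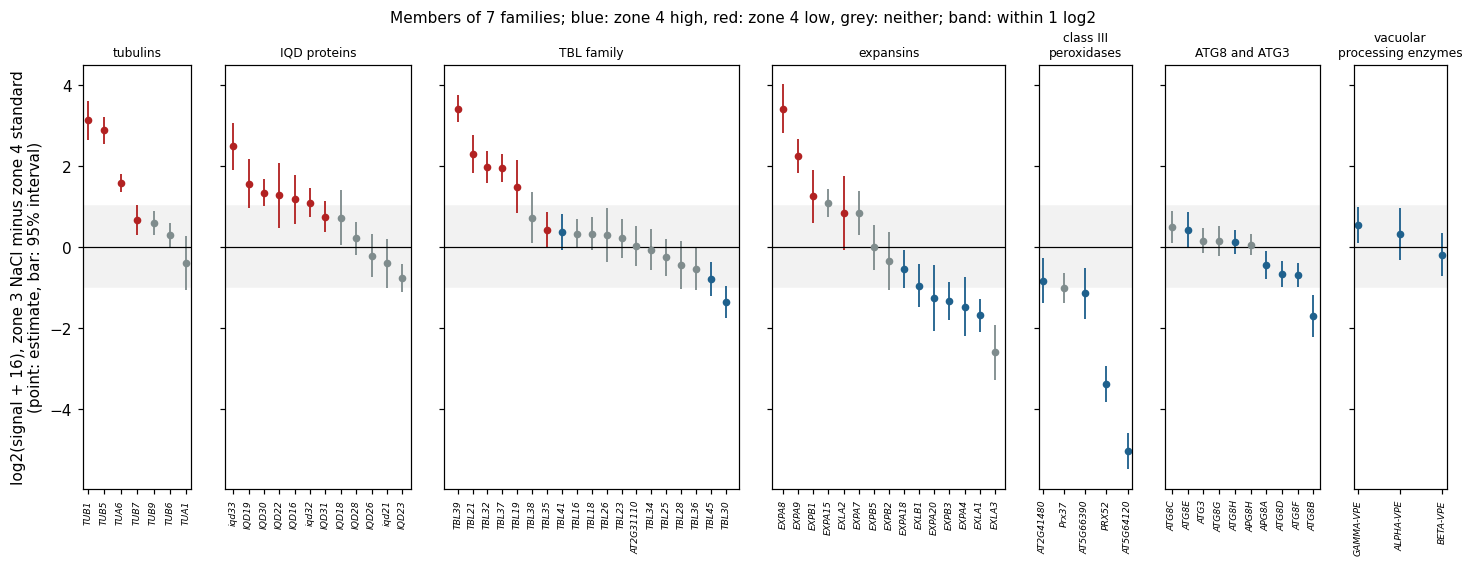
Log2 differences, salted zone 3 minus zone 4 on standard medium, with 95% intervals for the measured members of 7 families; red marks zone 4 low genes, blue zone 4 high genes, grey neither, and the band spans 1 log2 unit on both sides of 0. Red tubulin and IQD genes lie above 0, the 5 peroxidase genes recognised by name lie below it, and the vacuolar processing enzymes lie within the band.

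Zone 4 low genes that salted zone 3 matched included an actin, a homeodomain factor, a chromatin regulator and a histone. ACT11, an actin, had 154 and 201 in salted zone 3, 120.2 and 121 in zone 4 and 663 and 725 in unsalted zone 3 (0.49 from zone 4, interval 0.02 to 0.96). It was matched in 9 of 15 settings, and called higher than zone 4 after quantile normalization (0.62) and median centring (0.65) and in a fit of 6 arrays (0.49). HAT2, an auxin-induced homeodomain factor, had 279 and 339 in salted zone 3, 281 and 288 in zone 4 and 1099.8 and 747 in unsalted zone 3, and its salted zone 3 and zone 4 arrays overlapped. ULT1, which counteracts Polycomb silencing, had 245 and 194 in salted zone 3, 185 and 215 in zone 4 and 571 and 528 in unsalted zone 3, again with overlap between the first and second of these groups. HTB1, a histone H2B, had 289.6 and 259 in salted zone 3, 177 and 204 in zone 4 and 679 and 563 in unsalted zone 3. Of 4 H2B genes, HTB1 was higher than zone 4 (0.49, not called without zone 4 standard replicate 7 or zone 3 NaCl replicate 1, at 0.40 and 0.42), HTB4 was lower (-0.67) and HTB11 did not pass. HTB2 was called lower (-0.69), but not with a pseudocount of 64 or after quantile normalization or median centring. The call was also lost without a filter, without a trend and in the fit of 6 arrays. Nor did it hold without zone 4 standard replicate 7, zone 4 standard replicate 8 or zone 3 NaCl replicate 2 (-0.79 to -0.29). Among matched genes listed by locus only, AT5G62340 averaged 21.1 ± 16.6 in salted zone 3, 27.4 ± 13.7 in zone 4 and 304 ± 124 in unsalted zone 3 (SD, n = 2 each).

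Genes of abscisic acid and water loss were mostly above zone 4. Of 26 written for this list, 7 were measured under a listed gene. Of these, 5 were higher in salted zone 3 than in zone 4, none was lower, and 2, COR47 and COR15B, did not pass. The list's median was 2.61 from zone 4, beside -0.03 over all probe sets and 17.1% of all probe sets called higher. LEA4-5, a late embryogenesis abundant protein, had 876 and 1020.2 in salted zone 3, 2103 and 2188 in salted zone 4, 70.5 and 62.9 in zone 4 and 11.3 and 2.97 in unsalted zone 3. It was higher than zone 4 by 3.54 (SE 0.22, adjusted p = 2.28e-09), and it was zone 4 high before salt (step 1.86). LTI30, a dehydrin, had 11298 and 10811 in salted zone 3, 12298 and 11856 in salted zone 4, 6048 and 5582 in zone 4 and 1726 and 1789 in unsalted zone 3, a called difference of 0.93 from zone 4 (adjusted p = 4.56e-06).

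PUB19, a U-box ubiquitin ligase of the drought response, had 1367 and 1420.4 in salted zone 3, 1331 and 1316 in salted zone 4, 256 and 118 in zone 4 and 357 and 358 in unsalted zone 3. The salted zones stood close together, and the unsalted zones far below (2.88 from zone 4, adjusted p = 3.22e-07). SIS, listed as salt-induced serine rich, had 263 and 709 in salted zone 3, 390.1 and 309.8 in salted zone 4, 53.0 and 62.6 in zone 4 and 33.8 and 31.4 in unsalted zone 3; its 2 salted zone 3 arrays spread more widely than those of any other group. AT3G02480, on the same list, was near the floor in both unsalted zones, with 145 and 161 in salted zone 3, 329 and 674 in salted zone 4, 4.68 and 7.7 in zone 4 and 14.3 and 4.81 in unsalted zone 3. Salted zone 3 passed beyond 32 zone 4 high probe sets, 12 of them with 1 listed gene. Of those 12, AT5G15180 had 1996 and 2547 in salted zone 3, 818 and 759 in salted zone 4, 459 and 573 in zone 4 and 88.0 and 109.7 in unsalted zone 3. Unlike LEA4-5, its highest arrays were those of salted zone 3. GAT1_2.1, a glutamine amidotransferase, was beyond by 1 of its 2 probe sets (1.24, adjusted p = 0.00183).

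Salted zone 3 also stood away from both unsalted zones in genes that the zones share. In 133 probe sets it was called more than 2-fold above both and in 76 more than 2-fold below both, where the 95% interval between the unsalted zones lay within 1 log2 unit; both differences share the salted zone 3 arrays, so these counts are a description. RTE1, a regulator of the ethylene receptor ETR1, had 266 and 266 in salted zone 3, 126 and 136 in salted zone 4, 65.0 and 93.4 in zone 4 and 114 and 99.8 in unsalted zone 3 (1.58 from zone 4, adjusted p = 3.75e-06). The transcription factor gene bZIP44 had 1889 and 1774 in salted zone 3, 436 and 522 in salted zone 4, 722 and 664 in zone 4 and 789 and 670.4 in unsalted zone 3 (1.38, adjusted p = 4.52e-06). In both genes the salted zone 3 arrays were the highest of the 8. AT2G41190 and SRC2 were higher still in salted zone 4, with means of 2555 ± 121 and 4415 ± 939 there beside 942 ± 142 and 2560.2 ± 305 in salted zone 3 (SD, n = 2 each). AT3G20300 had the largest difference of those with 1 gene and at least 100 signal units, 3.13 from zone 4 (adjusted p = 1.68e-06).

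Among the 76 that were lower, FaTA, a plastid thioesterase that releases fatty acids, had 73.2 and 73.9 in salted zone 3, 355 and 434 in salted zone 4, 247 and 340.4 in zone 4 and 195 and 195 in unsalted zone 3 (-1.77 from zone 4, adjusted p = 4.25e-07). RALFL31, a RALF-like signalling peptide, had 55.1 and 52.2 in salted zone 3, 133 and 104 in salted zone 4, 133 and 152 in zone 4 and 166 and 126 in unsalted zone 3. Salted zone 3 was the lowest group in both. UGT84A4 (-1.84), the starch branching enzyme gene SBE2.2 (-1.54) and APS3, an ATP sulfurylase of sulfate assimilation (-1.11), were lower than zone 4 and than unsalted zone 3 as well. AT5G48430 fell to 67.6 and 59.2 in salted zone 3, against 787 and 726 in zone 4 and 639.5 and 426 in unsalted zone 3, and was also low in salted zone 4 at 150.0 and 179.8.

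**Figure D5:**
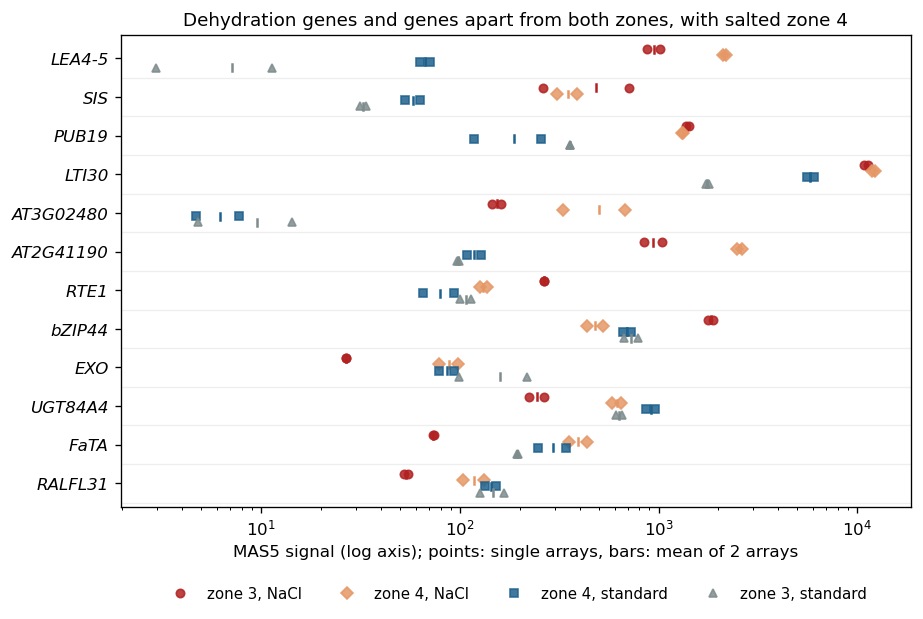
MAS5 signals on a log axis of 12 genes that salted zone 3 carried past zone 4 or away from both unsalted zones, for salted zone 3 (red circles), salted zone 4 (orange diamonds), zone 4 on standard medium (blue squares) and zone 3 on standard medium (grey triangles). Points are single arrays and bars the mean of 2 arrays; LEA4-5, AT3G02480 and AT2G41190 are highest in salted zone 4, and RTE1 and bZIP44 in salted zone 3.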

How the data were processed

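The 16 samples were read on Affymetrix ATH1 arrays after two-cycle amplification, per the labels' protocols. The deposited intensity values are the authors' MAS5 signals, per the submitters' processing notes. Scaling to a common trimmed mean was seen in the values, and the scaling step itself is not given in the sources used here. Of 22810 probe sets, 64 controls were dropped, and 17099 were tested because at least 2 arrays exceeded the 40th percentile (a signal of 41.4).

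Values were taken as log2(signal + 16), and a linear model with a mean for every one of the 8 groups was run in limma (version 3.58.1, under R 4.3.3; eBayes with a trend, 8 residual and 8.61 prior degrees of freedom). Benjamini-Hochberg adjustment ran over the 17099 probe sets. All p-values in the report come from this limma fit. The fit was tested on simulated data.

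Genes were named through the platform's probe table, and a comparison with RefSeq symbols changed 0 of these names. Of the tested probe sets, 9611 had 1 gene, 337 several and 7151 none listed, and the last 2 kinds are counted but not named. The probe set with the highest mean over 16 arrays stands for a gene. The genes and lists were chosen with earlier results of these data known. Families were taken by symbol or synonym, chosen after the table was seen, since no gene descriptions were given. Named genes are those with 1 listed gene and at least 100 mean signal in 1 of the 3 groups, in order of the size of the difference or step, every measured list member, and, chosen after their values were seen, up to 20 genes of each kind that carry a symbol. Sequences were not used here.

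Alternatives were pseudocounts of 1 and 64, quantile and median normalization, other filters, no trend, 6 arrays only, a random replicate block, leaving out each of 6 arrays in turn, a 1.5-fold tolerance, and other definitions of zone 4 genes.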

Additional observations from a re-analysis of the deposited data

Results flagged for a closer look

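In 11 of the named genes and list members, salt changed the signal in opposite directions in zone 3 and zone 4, both changes and their difference being called by limma over all probe sets. The same count was not made over all probe sets, so the 11 are given as single genes and not as a share. The largest was in AT5G65530, matched in salted zone 3, where the salt change was 3.67 in zone 3 and -1.45 in zone 4, a difference of 5.12 (SE 0.54, adjusted p = 2.07e-05). Its signals were 1567 and 1861 in salted zone 3, 534 and 577 in salted zone 4, 1301 and 1823 in zone 4 and 65.0 and 210.2 in unsalted zone 3. Its match held in 7 of 15 settings. AT1G03920, also matched, changed by 2.23 in zone 3 and -2.10 in zone 4, a difference of 4.34 (adjusted p = 3.01e-05).

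A pair of auxin-conjugating genes showed the same contrast. GH3.3 changed by 1.43 in zone 3 and -1.85 in zone 4, a difference of 3.28 (adjusted p = 0.000531), and IAGLU by 1.70 and -0.74, a difference of 2.44 (adjusted p = 1.78e-05). Both hair expansins did as well, EXPA18 with 1.01 in zone 3 and -1.74 in zone 4, a difference of 2.75 (adjusted p = 3.21e-05), and EXPA7 with 1.18 and -1.43, a difference of 2.61 (adjusted p = 0.000225). In salted seedlings the hair expansins were higher in zone 3 than in zone 4, as their array signals in the report show.

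For NCRK, a receptor-like kinase, the difference was 2.79 (1.55 in zone 3, -1.24 in zone 4). It was 2.40 for TBL41 (1.60 and -0.80), 1.84 for bZIP44 (1.31 and -0.52) and 1.58 for the P450 gene CYP78A9 (0.82 and -0.76). EXLA2 went the other way, with a salt change of -3.31 in zone 3 and 1.63 in zone 4, a difference of -4.93 (adjusted p = 7.07e-05). Its zone 4 signals were 33.5 and 49.6 under salt and 2.15 and 2.72 on standard medium, in part under the pseudocount of 16. The zone 4 standard arrays that enter the salt change in zone 4 also define zone 4 high and low genes. These genes were picked out after their values were seen.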

How the results depend on the processing

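Called probe sets numbered 5809 to 6525 under the alternatives that kept all arrays of the comparison, and 4917 to 6257 when 1 array was left out. The split of calls depended on scaling: 46.4% were higher in salted zone 3 as reported, 52.7% after quantile normalization and 60.7% after median centring, and each of those scalings called 7 UDP-glycosyltransferase genes higher. For the named genes and list members over these alternatives, 5219 values stayed on their side of the threshold, 130 lost the call and 74 gained it. The sign turned in 0 called values and in 138 uncalled ones, 28 of them after median centring, which adds about the same amount to every gene. With a pseudocount of 64, beyond counts were 14 (high) and 2 (low), low genes short 474 and genes below both zones 32. Without a filter, 2 IQD genes were lower. Without 1 array, low genes beyond ranged from 3 to 10 and lower TBL genes from 1 to 2.

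The class counts moved with their definition. At a 1.5-fold tolerance, 84 high and 69 low genes were matched, 1189 low genes short and 16 beyond. With zone 4 genes taken against unsalted zones 1 and 2, there were 3987 high genes (1489 matched, 175 beyond) and 3767 low genes (2194 matched, 471 short, 160 beyond). From the salted arrays, a definition chosen after seeing the data, there were 3749 high genes (1349 matched, 198 beyond) and 3835 low genes (2252 matched, 135 beyond). The cause of these shifts was not tested.

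No paired analysis was possible because the groups compared share no replicate number; a random replicate block gave 6284 calls at a correlation of -0.04. With 2 arrays a group, and signals under 16 whose size depends on the pseudocount, low genes such as AT2G23540, XTH26 and EXPA8 have a direction but no firm fold. No promoter search was run, since no sequence was used.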
